A study of Homo sapiens with 10 samples.

Results

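The p53 circuit was followed through 6 genes in KOPT-K1, an established line of human T-lineage acute leukaemia: MDM2 and MDM4, which restrain p53, USP7, which stabilises MDM2 and p53, and CDKN1A, PPM1D and SESN1, which p53 activates. They were taken by name from a list of 6 genes and matched through their versioned Ensembl IDs, a matching that uses no measured value. The list itself was drawn up with earlier results of these data known. The gene for p53 itself is not analysed here. All 6 were found among the 55889 gene IDs, and all 6 were among the 10297 genes with a mean of at least 1 RPKM (reads per kilobase of gene, scaled to library size) over the footprint libraries and over the RNA libraries. Cells received DMSO, the solvent control, or 25 nM silvestrol, an inhibitor of the initiation helicase eIF4A, and treatment lasted 45 minutes. Each treatment had 2 libraries of ribosome-protected fragments (footprints) and 3 of total RNA. The labels do not say whether replicates were separate cultures, so the spread behind each p-value is that of these libraries and may be technical.

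p53 is a transcription factor that is made continuously and destroyed almost as fast. MDM2, itself a p53 target, is the ubiquitin ligase that marks p53 for the proteasome, and its close relative MDM4 binds and blocks the activation domain of p53. Because MDM2 and MDM4 are short-lived proteins, their amounts depend on continued translation. Silvestrol clamps eIF4A on mRNA, and the title of the series links dependence on eIF4A to G-quadruplexes, structures that G-rich RNA can form.

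MDM2 has a constitutive promoter and a p53-responsive promoter within its first intron. The RefSeq table (GRCh38.p14) lists 4 MDM2 start sites, 2 at each place, and the places lie 845 bases apart. The 250 bases before each start were searched for a pair of abutting p53 consensus decamers, which read the same on both strands, and the fewest mismatches were counted. The downstream MDM2 windows held a pair with 2 mismatches at chr12:68808918-68808947 (plus strand, flanks included), while the upstream ones had at best 5. In SESN1 the best of 3 windows had 3 mismatches at chr6:109009013-109009042 (minus strand), a start other than that of the SESN1 leader described next. The other genes had at best 4 (PPM1D, USP7) or 5 (CDKN1A, MDM4), and bases farther from the starts were not searched. Of 35116 windows in the table, which overlap where starts are close, 0.561% held a pair with at most 2 mismatches and 4.36% with at most 3. At most 4 were found in 22.1% of windows and at most 5 in 64.5%. The matches of MDM2 and SESN1 are shown, with the paired decamers in capitals, because they had the fewest mismatches of the 6 genes. A match describes letters only.
MDM2 downstream promoter: gagctGGTCAAGTTCAGACACGTTCcgaaa
SESN1 promoter: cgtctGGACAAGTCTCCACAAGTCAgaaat

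The leader, the untranslated stretch before the start codon, was read from 1 transcript per gene in GENCODE release 29. The MDM2 leader used starts at the downstream promoter and has 89 nt, those of MDM4, USP7, PPM1D and CDKN1A have 162, 199, 232 and 235 nt, and the SESN1 leader has 746 nt, against a median of 198 nt over 8828 tested coding genes. Upstream ATG triplets numbered 5 in SESN1, 2 in MDM4, 1 in MDM2 and CDKN1A, and 0 in PPM1D and USP7. At least 1 was present in 53.02% of these genes. None of the 6 leaders held a run of 4 GGC or CGG triplets (RNA strand only), which 4.72% of these genes had. A looser G-quadruplex pattern, 4 runs of at least 2 G with 1 to 7 bases between them, was found in 5 of the 6 (not in MDM2) and in 69.25% of these genes. The USP7 leader was the exception in composition, with 89.5% G and C against a median of 66.0%. It alone of the 6 held a run of 4 or more GGA triplets, present in 0.759% of these genes. The stretch of 29 bases around this run, with the run in capitals, is shown because USP7 had the lowest fitted change in translational efficiency (footprints relative to RNA) of the 6, and a match is no evidence of a folded structure or a cause.
USP7 leader, stretch with the GGA run: cgcgcgGGAGGAGGAGGAGGAGGccgccc

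USP7 was the most abundant mRNA of the circuit and CDKN1A, the cyclin-dependent kinase inhibitor p21, the least. In DMSO, RNA stood at 47.9 ± 0.451 RPKM (SD, n = 3) for USP7, 11.3 ± 0.153 RPKM for MDM2 and 10.6 ± 0.603 RPKM for PPM1D. The others were at 3.47 ± 0.202 RPKM (MDM4), 2.33 ± 0.0971 RPKM (SESN1) and 2.10 ± 0.0850 RPKM (CDKN1A). MDM2 and PPM1D met at 11.2 RPKM, their lowest and highest DMSO library, so that pair had no clear order. Footprints in DMSO followed the same order: 22.95 ± 1.63 RPKM (SD, n = 2) for USP7, 12.6 ± 0.141 RPKM for MDM2 and 10.7 ± 2.67 RPKM for PPM1D. MDM4 followed with 4.09 ± 0.346 RPKM, SESN1 with 1.95 ± 0.0707 RPKM and CDKN1A with 1.28 ± 1.504 RPKM. MDM2 overlapped PPM1D and SESN1 overlapped CDKN1A in footprints. Over all libraries, the RNA of USP7 stood above 87.7% of 9017 tested coding genes, and that of CDKN1A above 4.78%.

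**Figure D1:**
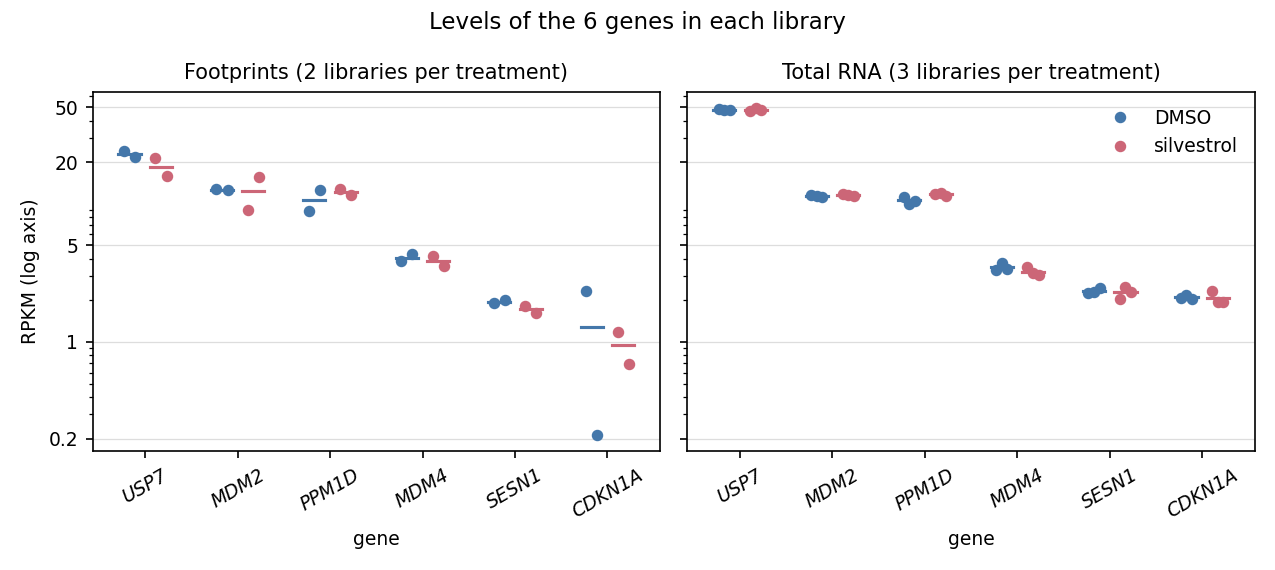
Deposited level of each gene in each library (RPKM, log axis), footprints on the left and total RNA on the right; points are libraries and bars are group means. USP7 RNA lies between 47.1 and 49.1 RPKM in all 6 libraries, the 2 silvestrol footprint points of MDM2 lie apart at 9.03 and 15.6 RPKM, and CDKN1A footprints span 0.213 to 2.34 RPKM in DMSO.

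The ratio of footprints to RNA describes how densely an mRNA is occupied by ribosomes. In DMSO it was highest for MDM4 (1.18, ratio of mean RPKM) and MDM2 (1.11), then PPM1D (1.01), SESN1 (0.836), CDKN1A (0.607) and USP7 (0.479). Over single DMSO libraries the CDKN1A ratio ran from 0.0968 to 1.15 and that of USP7 from 0.450 to 0.507. The order of CDKN1A and USP7 is therefore not settled. On the log2 scale USP7 stood above 20.1% of coding genes and MDM2 and MDM4 above 80.7% and 83.5%. With silvestrol these shares were 14.5%, 78.7% and 85.9%. No test was made of these ratios, and they compare genes whose lengths count differently in the 2 assays. Footprints fall mainly on coding sequence, whereas RPKM divides by a gene length, and the coding sequence made up 11.1% of the annotated exon length of MDM2, 13.35% of that of MDM4 and 41.5% of that of USP7. Taken per coding length, with all footprints assigned to it, the DMSO footprint level became 113.6 ± 1.28 for MDM2, 55.3 ± 3.92 for USP7, 30.6 ± 2.60 for MDM4 and 29.8 ± 7.43 for PPM1D (SD, n = 2, RPKM per coding length). CDKN1A (7.91 ± 9.32) and SESN1 (6.04 ± 0.219) stayed below these 4. In DMSO, MDM2 thus led the circuit on that scale. By group means USP7 still had the lowest ratio, above 16.8% of 8940 coding genes, with MDM2 above 94.5% and MDM4 above 92.9%. CDKN1A changed side, from above 36.6% of these genes with the deposited values to above 69.8%. Its place is uncertain on either scale, because its DMSO footprint libraries lay at 1.32 and 14.5 RPKM per coding length. PPM1D moved from 74.6% to 56.6% and SESN1 from 61.3% to 52.7%. RNA was left on the gene length. The lengths behind the deposited values are not known, so these ratios depend on the annotation used here.

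**Figure D2:**
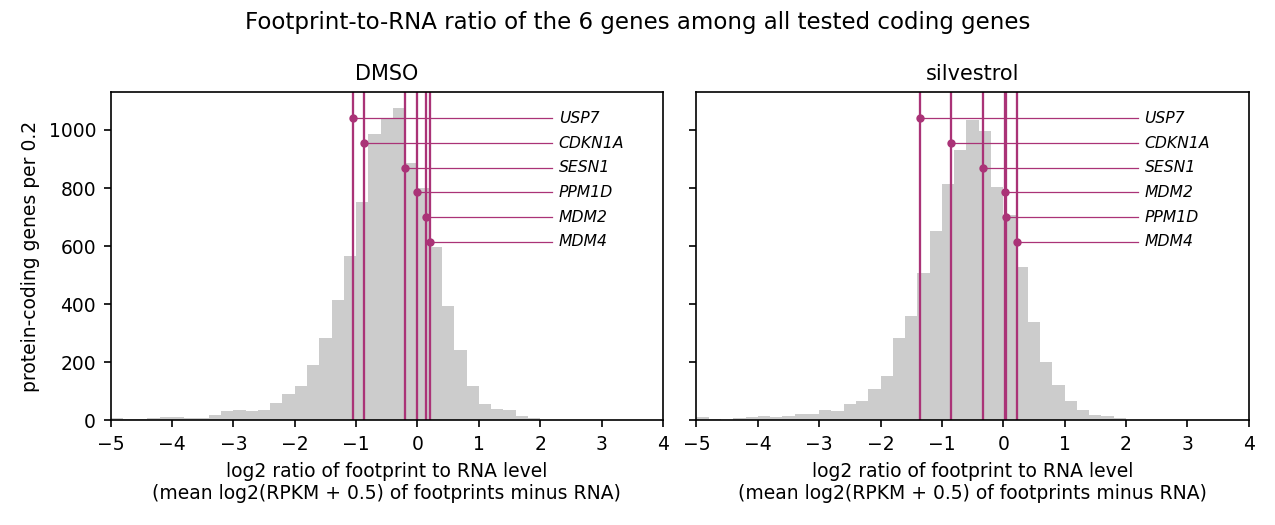
Grey bars count the tested protein-coding genes by their log2 ratio of footprint to RNA level (mean log2(RPKM + 0.5) of footprints minus that of RNA), in DMSO on the left and silvestrol on the right; lines mark the 6 genes. With the deposited values, USP7 and CDKN1A lie in the lower part of both distributions and MDM4, MDM2 and PPM1D in the upper part. Per coding length, which is not drawn, CDKN1A stood above 69.8% of coding genes in DMSO and 59.3% in silvestrol. Its DMSO footprint libraries lay far apart, at 2.34 and 0.213 RPKM.

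The comparison of silvestrol with DMSO asked whether the circuit lost ribosomes relative to other mRNAs when eIF4A was blocked. None of the 6 genes was called (limma, adjusted p under 0.05) in translational efficiency, in footprints or in RNA. Of all tested genes 0.107% were called in translational efficiency, 0.0486% in footprints and 0.282% in RNA, so 0 of 6 is no result about these genes. By direction, lower and higher, these shares were 0.0874% and 0.0194% in translational efficiency, 0.0291% and 0.0194% in footprints, and 0.00971% and 0.272% in RNA. At an unadjusted p under 0.05, 0 of the 6 passed in translational efficiency, 0 in footprints and 1 in RNA (PPM1D), beside 7.38%, 6.98% and 9.23% of all tested genes. Translational efficiency is the change in footprints minus the change in RNA, on the log2(RPKM + 0.5) scale. Its median over the 6 genes was -0.05, with 3 below and 3 above 0, beside -0.08 over all tested genes. A change of 0.015, that of CDKN1A, was above 61.6% of all tested genes, so a count below 0 is to be read beside that share. RPKM is relative to each library's total, so a loss of translation shared by all mRNAs would not be seen. The 95% confidence intervals, not the adjusted p, describe what was measurable. For translational efficiency they reached from 0.628-fold to 1.36-fold for MDM2, from 0.597-fold to 1.095-fold for USP7 and from 0.392-fold to 2.61-fold for CDKN1A. Footprints fitted alone gave wider intervals for MDM2 (0.588 to 1.52), USP7 (0.579 to 1.12) and CDKN1A (0.250 to 3.99), and narrower ones for MDM4, PPM1D and SESN1. A difference of footprints and RNA cannot be known better than the footprints alone. The translational efficiency intervals of MDM2, USP7 and CDKN1A may therefore be too narrow.

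**Figure D3:**
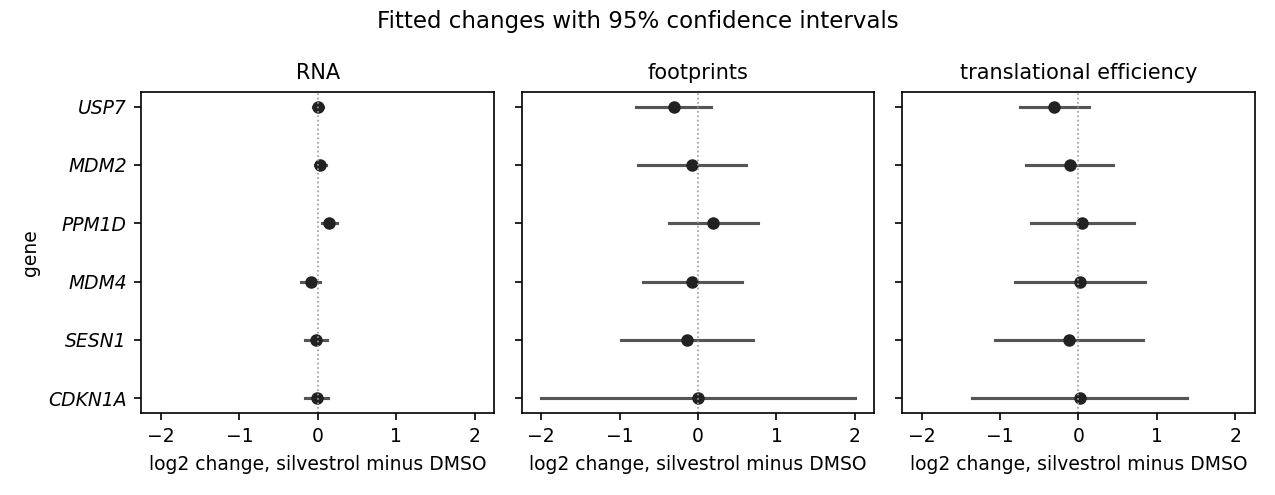
Fitted log2 change (silvestrol minus DMSO) of each gene in RNA, footprints and translational efficiency; points are estimates and bars 95% confidence intervals. RNA intervals are narrow and only that of PPM1D (0.05 to 0.24) leaves out 0, while every footprint and translational efficiency interval includes 0.

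MDM2 (ENSG00000135679.16, chromosome 12) had RNA at similar values in both treatments, but its footprints differed between the 2 silvestrol libraries. The footprint level was 12.7 and 12.5 RPKM in DMSO and 9.03 and 15.6 RPKM in silvestrol, so that the silvestrol libraries lie on either side of both controls. RNA was 11.5, 11.3 and 11.2 RPKM in DMSO and 11.8, 11.6 and 11.4 RPKM in silvestrol, and the groups overlap. The gap between the silvestrol footprint libraries was 0.76 on the log2 scale, larger than in 91.9% of 6320 genes with at least 5 RPKM in footprints, whose median gap was 0.22. It was wider than counting error: an estimated 285 and 421 reads give exact Poisson 95% intervals that end at 10.1 RPKM and begin at 14.1 RPKM, respectively, and cover counting error only. The fitted change in translational efficiency was -0.11 (SE 0.26, limma adjusted p = 0.964), in footprints -0.08 (SE 0.28) and in RNA 0.03 (SE 0.03). Which silvestrol footprint library is used sets the direction, with a translational efficiency change of 0.27 without replicate 1 and -0.49 without replicate 2. Leaders from the 2 promoters are summed in 1 value per gene, so a change confined to transcripts of one promoter would not be seen. An antisense gene, AC025423.4, shares 785 of 13284 exon bases with MDM2 and averaged 25.9 RPKM in RNA, a processed pseudogene on the same strand shares 439 bases, and no source states whether counting used strand, so reads of these genes may be mixed.

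MDM4 (ENSG00000198625.8, chromosome 1), the non-catalytic partner of MDM2, had similar levels in both treatments. Its footprints were 3.84 and 4.33 RPKM in DMSO and 4.18 and 3.54 RPKM in silvestrol. Its RNA was 3.32, 3.70 and 3.39 RPKM in DMSO and 3.49, 3.16 and 3.03 RPKM in silvestrol. The groups overlap in both assays, although the 2 lowest RNA values are silvestrol libraries. The fitted changes were 0.02 (SE 0.38, limma adjusted p = 0.998) in translational efficiency, -0.07 (SE 0.26) in footprints, which turned to 0.01 with quantile normalization, and -0.09 (SE 0.06, adjusted p = 0.727) in RNA.

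USP7 (ENSG00000187555.10, chromosome 16), the deubiquitinase that removes ubiquitin from MDM2 and from p53, had lower footprints in both silvestrol libraries with RNA at similar values, a difference that did not pass the test. The footprint level was 24.1 and 21.8 RPKM in DMSO and 21.3 and 15.9 RPKM in silvestrol, and the groups do not overlap. The same order, both silvestrol libraries below both controls, was seen in 25.2% of all tested genes, and the opposite order in 13.1%. RNA was 48.4, 47.5 and 47.9 RPKM in DMSO and 47.1, 49.1 and 47.4 RPKM in silvestrol, with overlapping groups. The change in translational efficiency was -0.31 (SE 0.20, limma adjusted p = 0.803), with 24.3% of tested genes lower, and in footprints -0.31 (SE 0.20, adjusted p = 0.784). Silvestrol replicate 2 carried most of it: the translational efficiency change was -0.10 without that footprint library and -0.51 without replicate 1. In RNA the fitted change was -0.0022 (SE 0.03), and its interval ran from -0.06 to 0.06, the narrowest of the 6 genes.

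PPM1D (ENSG00000170836.7, chromosome 17), the phosphatase WIP1 that switches off p53 and the DNA damage kinases upstream of it, was the member with the clearest RNA difference. Its RNA was 11.2, 10 and 10.5 RPKM in DMSO and 11.8, 12 and 11.4 RPKM in silvestrol, so every silvestrol library lies above every control. That order was seen in 8.97% of all tested genes and the opposite one in 3.99%. The fitted RNA change was 0.15 (SE 0.04, unadjusted p = 0.0063, limma adjusted p = 0.238), which did not pass. Footprints were 8.82 and 12.6 RPKM in DMSO and 12.8 and 11.5 RPKM in silvestrol, where the groups overlap. Their fitted change was 0.19 (SE 0.23, limma adjusted p = 0.866) and that of translational efficiency 0.05 (SE 0.30, adjusted p = 0.992). Without the low DMSO footprint replicate 1 both changed sign, to -0.05 and -0.20. The translational efficiency change also turned, to -0.027, without silvestrol footprint replicate 1.

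CDKN1A (ENSG00000124762.7, chromosome 6) halts the cell cycle by binding cyclin-dependent kinases, and its footprints were too few to measure a change. Its mean footprint level in silvestrol, 0.943 RPKM, was below the filter of 1 RPKM, which it passed through its DMSO libraries. The footprint level was 2.34 and 0.213 RPKM in DMSO and 1.19 and 0.696 RPKM in silvestrol. After correction for each library's estimated total, these values stood to each other as 15, 1, 8 and 4, which are whole reads if the lowest value is a single read. Both silvestrol libraries therefore lie between the 2 controls, and the sums were 16 reads in DMSO (exact Poisson 95% interval 9.15 to 26.0) and 12 in silvestrol (6.20 to 21.0), counting error only. The fitted change in translational efficiency was 0.01 (SE 0.63, limma adjusted p = 0.9994), and it moved to 1.01 without DMSO footprint replicate 1 and to -0.98 without replicate 2. RNA, from an estimated 894 to 1454 reads per library, was measurable. It was 2.07, 2.2 and 2.04 RPKM in DMSO and 2.34, 1.96 and 1.94 RPKM in silvestrol, overlapping, with a fitted change of -0.02 (SE 0.07, limma adjusted p = 0.985).

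SESN1 (ENSG00000080546.9, chromosome 6), a stress-induced sestrin that restrains the growth kinase complex mTORC1, was nearly as low. Its footprints were 1.90 and 2.00 RPKM in DMSO and 1.81 and 1.63 RPKM in silvestrol. The estimated reads were 22 and 17 in DMSO and likewise 22 and 17 in silvestrol, so the order in RPKM rests on the library totals. Both silvestrol values lie below both controls, the order that 25.2% of tested genes showed, and the gap is small against the counting interval of 0.952 to 2.62 RPKM for the lowest library. RNA was 2.25, 2.31 and 2.44 RPKM in DMSO and 2.06, 2.52 and 2.29 RPKM in silvestrol, with overlapping groups. The fitted changes were -0.12 (SE 0.43, limma adjusted p = 0.980) in translational efficiency, -0.14 (SE 0.34) in footprints and -0.02 (SE 0.06) in RNA. Exons of SESN1 share 363 bases with the antisense gene AL390208.1, and those of CDKN1A share 146 with DINOL on the opposite strand, neither analysed here.

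The surrounding pathway was read from 7 lists with 124 distinct genes, of which 108 were tested, and none was called in any of the 3 comparisons. With 0.107%, 0.0486% and 0.282% of all tested genes called in translational efficiency, footprints and RNA, a count of 0 says nothing particular to the lists. Of 35 p53 target genes, 27 were tested and 8 had an RNA level under 1 RPKM. The apoptosis gene BBC3 (PUMA) at 0.534 RPKM and the antiproliferative gene BTG2 at 0.971 RPKM were among the latter, 2 examples chosen after their values were seen. Other targets were well expressed: the RNA median of the 35 was 4.36 RPKM, and the highest was PMAIP1 at 44.0 RPKM. The median translational efficiency change of the 27 was -0.03, with 13 above and 14 below 0, and their RNA median was 0.01. The death receptor FAS had the smallest unadjusted p among them: its footprints were 12.4 RPKM in DMSO and 8.01 RPKM in silvestrol, its RNA 11.3 and 10.8 RPKM, and its translational efficiency change -0.55 (SE 0.25, limma adjusted p = 0.666). The growth arrest gene GADD45A followed with -0.97 (SE 0.47, limma adjusted p = 0.688), from footprints of 2.35 RPKM in DMSO and 0.985 RPKM in silvestrol. GADD45A passed the filter of 1 RPKM only through its DMSO footprints, where it was high. Single footprint libraries moved both values: FAS was at -0.29 without silvestrol replicate 1 and -0.81 without silvestrol replicate 2, and GADD45A at -0.52 without DMSO replicate 2 and -1.41 without DMSO replicate 1.

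Genes whose products act on the MDM2 and p53 proteins had list medians of -0.12 and 0.05 in translational efficiency, beside -0.08 over all tested genes. Of 25 tested ubiquitin ligases, deubiquitinases and modifiers, 6 were above 0 and 19 below in translational efficiency, with a median of -0.12, and with median scaling of the libraries, which moved the median of all genes to -0.01, 12 were above 0. UBE2D2 and UBE2D1, ubiquitin-conjugating enzymes that serve MDM2, had changes of -0.41 (SE 0.19, limma adjusted p = 0.671) and -0.60 (SE 0.31, adjusted p = 0.705). UBE2D1 was at -0.32 without silvestrol footprint replicate 1 and -0.89 without replicate 2. UBE2D2 passed only where both assays were given 1 spread (limma adjusted p = 0.035), a setting that called 545 of the 10297 tested genes. Of the 11 ribosomal and nucleolar proteins that bind MDM2 and hold it off p53 under nucleolar stress, 6 were above 0, with a median of 0.05. RPL23 (-0.60, SE 0.23, limma adjusted p = 0.568) and NPM1 (-0.46, SE 0.21, adjusted p = 0.666) had the smallest p of these, and RPL23 was at -0.34 without DMSO footprint replicate 1 and -0.86 without replicate 2. Both values are uncertain, because these genes have pseudogene copies and how multiply mapped reads were counted is not stated. NPM1 passed only with 1 spread (limma adjusted p = 0.035), the same setting that called 545 of the 10297 tested genes.

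The list of DNA damage kinases, their partners and PPM1D substrates had the highest median of the 7 lists, with no gene called. Its 13 genes include checkpoint adaptors and repair proteins as well as kinases, and 0 were called. In translational efficiency 10 were above 0, with a median of 0.21 beside -0.08 over all tested genes. With median scaling of the libraries 11 were above 0, with a median of 0.27. The same scaling put 15 of 27 p53 targets, 6 of 11 MDM2 binders, 6 of 13 sestrin and GATOR genes and 4 of 12 CDKN1A partners above 0. The checkpoint kinase CHEK2 had the highest value of the list, 0.57 (SE 0.35, limma adjusted p = 0.773), with footprints of 4.37 RPKM in DMSO and 7.16 RPKM in silvestrol on RNA of 7.52 and 7.54 RPKM, but 0.02 without silvestrol footprint replicate 2 and 1.12 without replicate 1. The stress kinase MAPK14 (p38) was at -0.31 (SE 0.20, adjusted p = 0.796). No member of this list had an unadjusted p under 0.05.

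Around SESN1, 13 tested sestrin and GATOR genes, which sense amino acids for mTORC1, had a median of -0.12, with 6 above 0. The Rag GTPase RRAGA was at -0.61 (SE 0.23, limma adjusted p = 0.539). It passed only with 1 spread (limma adjusted p = 0.035), which called 545 of the 10297 tested genes. Its paralog RRAGB was at -0.99 (SE 0.45, limma adjusted p = 0.672), from footprints of 1.80 RPKM in DMSO and 0.785 RPKM in silvestrol. RRAGB passed the filter of 1 RPKM only through its DMSO footprints, where it was high. Its change moved to -0.25 without silvestrol footprint replicate 2 and to -1.73 without replicate 1. Of 12 partners of CDKN1A and other CDK inhibitors, 3 were above 0 (median -0.09). The kinase CDK2 was at -0.46 (SE 0.23, limma adjusted p = 0.692) and its cyclin CCNE1 at -0.51 (SE 0.27, adjusted p = 0.716). Without silvestrol footprint replicate 1 they were at -0.76 and -0.25, and without replicate 2 at -0.16 and -0.77. Of 8 USP7 partners and substrates, 1 was above 0 (median -0.08), and 4 with median scaling. The DNA methyltransferase DNMT1 was at -0.18 (SE 0.17, limma adjusted p = 0.885) and MAGED1 at -0.15 (SE 0.20, adjusted p = 0.926). DNMT1 was at -0.042 without silvestrol footprint replicate 2, and MAGED1 at -0.0031 without replicate 1.

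**Figure D4:**
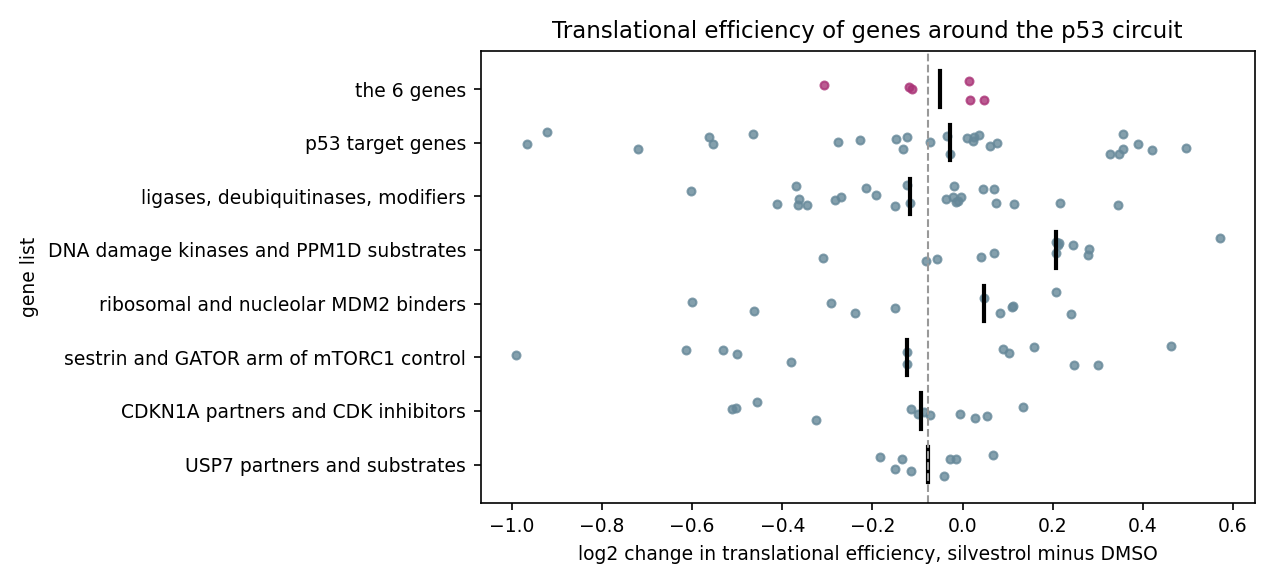
Log2 change in translational efficiency (silvestrol minus DMSO) of each tested gene of 7 lists and of the 6 genes; points are genes, black bars medians, and the dashed line the median of all 10297 tested genes (-0.08). The DNA damage list has the highest median (0.21) and no point in any list was called.

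As a description of likeness, the values of each gene were centred within each assay and correlated with those of all tested genes over the 10 libraries, 4 of which are footprints with wide spread. The nearest gene was PTRH2 for MDM2 (Pearson's r = 0.993), EMC10 for MDM4 (0.926), LZTR1 for CDKN1A (0.993), NKRF for PPM1D (0.972), RPL5 for USP7 (0.994) and LARS1 for SESN1 (0.960). The second nearest were PTGER2, ASPSCR1, DAGLB, GTF2E1, GRB2 and PCGF5 in the same order, with r from 0.894 to 0.992. All share libraries with the member they were matched to. Each was picked as a best match among all tested genes, so a high r is no evidence of a link between the genes.

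Of the lineage markers, all 10 of T cells were at or above 1 RPKM in RNA, 2 of 5 B-cell markers (CD79A and CD79B) and 0 of 7 myeloid and erythroid and 0 of 4 matched stromal and epithelial markers. Estimated totals were 1.66 to 2.38 M reads for footprint libraries and 126.5 to 216.7 M for RNA libraries. Replicates correlated across tested genes at r = 0.921 and 0.928 in footprints and at 0.998 to 0.999 in RNA, and replicate libraries held equal values in at most 356 of the tested genes.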

How the data were processed

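RPKM values for each Ensembl gene ID were deposited by the authors, 1 file for each of the 10 libraries, per the file headers. The submitters' processing notes name STAR and hg19, with neither version nor role. The counter and the annotation (gene lengths, strandedness) were not given in the sources used here. Symbols came from a gene name table (49395 IDs) and GENCODE release 29 (267 more), which is on another build and served for names, lengths, overlaps and leaders only. Promoter windows are from RefSeq (GRCh38.p14).

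Depth was estimated from low values of genes with 1 annotated transcript, taken as whole reads over the exon length. At the chosen totals, 90.3% to 92.9% of these low values lay within 0.05 of a whole read. The totals are rough and no count model was used.

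Values were analysed as log2(RPKM + 0.5), which understates changes of low genes, with limma 3.58.1 in R 4.3.3 (lmFit, eBayes with trend and robust, two-sided, Benjamini-Hochberg over the 10297 tested genes). Footprints and RNA were fitted separately, and translational efficiency as the interaction of assay and treatment over 10 libraries with a weight per assay (0.119 for footprints, 4.12 for RNA). The fits were also run on simulated data whose spreads were set by hand, which does not show how they perform on these libraries. The genes named from the lists are those called in translational efficiency or footprints, or otherwise the 2 with the smallest unadjusted p in translational efficiency, and the 3 largest RNA calls, of which there were none. The members and lists were chosen with earlier results of these data known. Alternatives were the pseudocount (0.1 and 1), the filter (none, or a mean of 5 RPKM), median scaling, quantile normalization, a replicate block, eBayes without trend and robust, 1 spread for both assays, and leaving out each library.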

Additional observations from a re-analysis of the deposited data

How the results depend on the processing

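None of the 6 genes was called under any alternative in any comparison. Values of fitted changes kept their sign in 229 of 261 recomputations, and 32 changed it. The filter, the replicate block, eBayes without trend and robust, and 1 spread leave a gene's fitted change as it was. Recomputations with these settings could not change a sign, so the 229 overstate how stable the signs were. Leaving out 1 library gave -0.49 to 0.27 for MDM2, -0.089 to 0.12 for MDM4, -0.98 to 1.01 for CDKN1A and -0.20 to 0.29 for PPM1D in translational efficiency. In footprints the ranges were -0.46 to 0.30 for MDM2, -0.18 to 0.032 for MDM4, -0.998 to 0.996 for CDKN1A and -0.052 to 0.44 for PPM1D. In RNA they were -0.087 to 0.022 for CDKN1A, -0.020 to 0.0092 for USP7 and -0.084 to 0.035 for SESN1. CDKN1A turned to -0.050 in translational efficiency with a pseudocount of 1, and in footprints to 0.21 with a pseudocount of 0.1, 0.050 with median scaling and 0.21 with quantile normalization. Quantile normalization also turned MDM4 footprints to 0.011 and USP7 RNA to 0.00061. The cause was not tested.

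Over all genes the 11 calls in translational efficiency became 6 without trend and robust and 545 (411 lower, 134 higher) with 1 spread, and 8 to 44 with a library left out (21 without DMSO footprint replicate 1, 44 and 31 without silvestrol footprint replicates 1 and 2). The split of 9 lower and 2 higher became 9 and 4 with quantile normalization, 8 and 7 with no filter, and 11 and 10 without DMSO footprint replicate 1. The 5 footprint calls became 2 with a pseudocount of 0.1, 2 with no filter, 2 at a mean of 5 RPKM, 8 with quantile normalization, 1 without trend and robust, and 0 to 0 with any library left out. The 29 RNA calls became 0 with no filter, 4 without trend and robust, and 0 to 35 with a library left out (0 without DMSO RNA replicate 1 or 3, 5 without DMSO RNA replicate 2, 1 without silvestrol RNA replicate 3). With the replicate block they were 57, footprint calls were 1 and translational efficiency calls 13. Deviations of same-numbered libraries from their group means had r = -0.03 in footprints and 0.04, -0.33 and 0.15 in RNA. With 2 or 3 libraries per group the deviations within a group are tied to each other. These values therefore cannot decide whether the numbers pair the samples, and pairing of footprints with RNA was not examined. A mean of 5 RPKM leaves out MDM4, CDKN1A and SESN1. Levels per coding length were added after seeing the data.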
